A study of Mus musculus with 24 samples.

Results

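The comparison set C3H 10T1/2 mouse embryo fibroblasts of knockout clone 2 against their wild type line, both without the muscle regulator MyoD. C3H 10T1/2 is an embryo fibroblast line from C3H mice that forced MyoD turns into skeletal muscle. Members were chosen by their labels: 4 clone 2 libraries (2 with no treatment and 2 given a plasmid for the long noncoding RNA LncMyoD) and 4 wild type libraries (2 with no treatment and 2 given the same plasmid), 8 of the 24 libraries in the series. The other 16 libraries come from a second knockout clone and from the same 3 lines after a MyoD adenovirus, and only the 4 of clone 1 without MyoD are used below.

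All cells grew in medium with fetal bovine serum, and none of the 8 libraries received the MyoD virus. The reference line is labelled wild type, while clone 2 is labelled as a LncMyoD knockout and is 1 clone. What is particular to that clone, to the knockout and to the makeup of its libraries, described below, thus cannot be told apart. The groups used hold no library with an empty plasmid and none of a wild type clone grown from 1 cell. The labels do not say that replicates came from separate cultures, so each p-value measures only the spread between these libraries, which may be technical.

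LncMyoD is a long noncoding RNA encoded upstream of Myod1, and it is known for its part in the myogenic program that MyoD starts. In fibroblasts without MyoD that program is off, and the RNA of such cells is dominated by matrix proteins, cytoskeleton, ribosomal proteins and growth-response genes. Fibroblasts read serum and mechanical tension through immediate-early genes, serum response factor and the YAP co-activator, and they hold their mesenchymal state through regulators such as Prrx1, Twist1 and the Snail and Zeb families.

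The clone 2 and wild type libraries stood apart in what RNA they held, before any gene was compared. The deposited values are TPM, a transcript's length-corrected share of its library, for transcripts that StringTie assembled in each library. A window of chromosome 17 from 39843013 to 39848827 (mm10) that holds ribosomal RNA sequence took 4.05% and 4.91% of TPM in untreated and 3.89% and 2.68% in plasmid-treated clone 2. In wild type it took 55.6% and 57.5% in untreated and 62.6% and 69.2% in plasmid-treated libraries. The means were 3.88% ± 0.919 in clone 2 and 61.2% ± 6.08 in wild type (SD, n = 4 each; exact two-sided permutation p = 0.0286, the smallest that 4 against 4 libraries allow). Protein-coding transcripts of nuclear genes took a mean of 58.1% in clone 2 and 9.18% in wild type. Mitochondrial transcripts took 8.77% ± 1.07 in clone 2 and 2.94% ± 0.793 in wild type (SD, n = 4 each). Clone 2 listed 12568 to 13253 genes at 1 TPM or more, against 5449 to 6838 in wild type. Depth, taken from the ratio of coverage to FPKM, overlapped at 3.65 to 5.04 Gb in clone 2 and 4.40 to 5.93 Gb in wild type. Clone 1 had a share like that of wild type, with 63.0% to 69.99% of TPM in the ribosomal window. The ribosomal share did not overlap between clone 2 and wild type, so this makeup cannot be told apart from the line. How far the makeup sets the gene differences below was not tested.

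**Figure D1:**
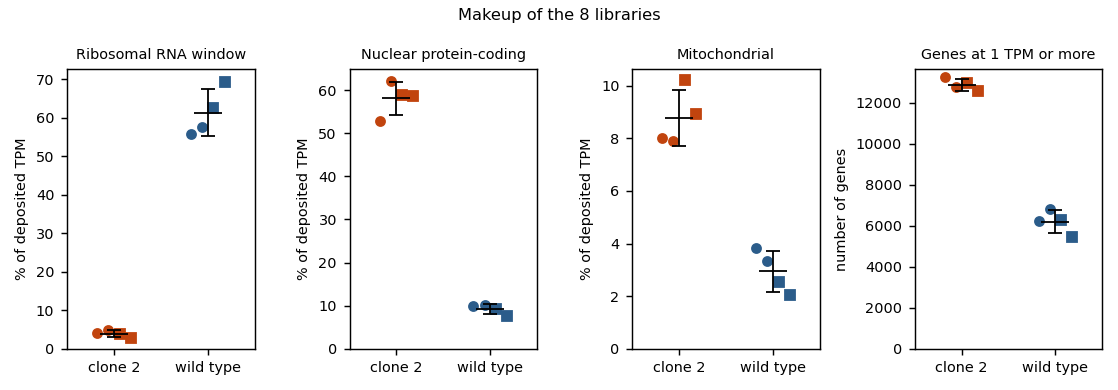
Makeup of each library without MyoD: share of TPM in the ribosomal window, in nuclear protein-coding transcripts and in mitochondrial transcripts (percent), and number of genes at 1 TPM or more, with clone 2 left of wild type. Circles are untreated libraries, squares are plasmid-treated ones, and bars are means ± SD; the clone 2 and wild type libraries overlap in none of the 4 panels.

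A direction depends on what a gene is measured against. With the deposited TPM as it stands, 9020 of 10987 genes tested were called higher and 281 lower in clone 2. The median gene stood 2.83 higher on the log2 scale. All values below are therefore TPM summed per reference gene and divided by a median-of-ratios factor per library ("scaled TPM"), so that a gene's rise or fall is relative to the typical gene. A gene was tested when at least 4 of the 8 libraries reached 1 scaled TPM, on log2(scaled TPM + 1), a scale that understates changes of low genes. A call needed a limma p, adjusted by Benjamini and Hochberg's method, under 0.05 and a log2 difference of at least 1.

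Where 4 values of a line are given, the untreated libraries come before the plasmid-treated ones. On that scale 9863 genes were tested, of which 3712 (37.6%) rose and 2118 (21.5%) fell in clone 2, so 59.1% of all genes tested were called. Every count for a gene group below is read against those shares. Counts with unscaled TPM are read instead against its 9020 higher and 281 lower of 10987 genes. Groups did not overlap for 6068 genes (61.5%). The median gene still stood 0.60 above wild type. Replicates of clone 2 correlated with each other at 0.921 to 0.940 over genes, those of wild type at 0.838 to 0.855, and clone 2 with wild type at 0.418 to 0.447, as a description.

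**Figure D2:**
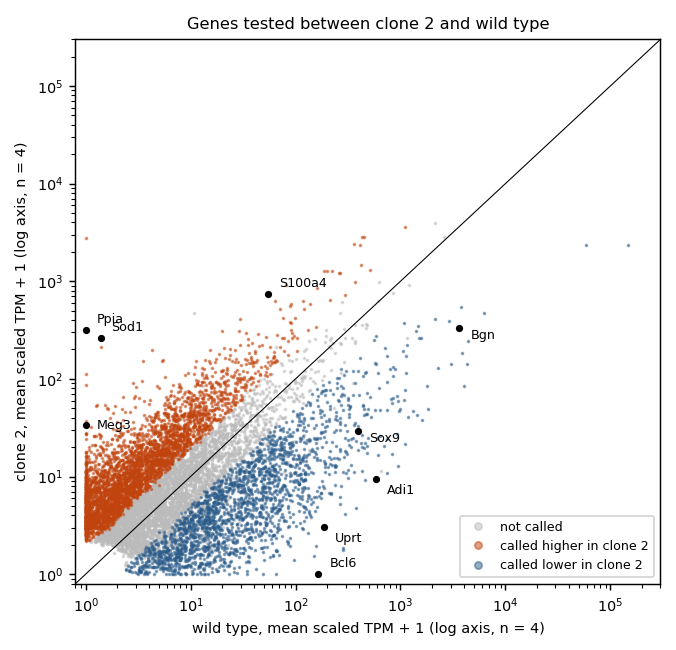
Mean scaled TPM + 1 of each tested gene in clone 2 (y axis) against wild type (x axis), both on log axes, with called genes coloured and 9 genes of the text named. A band of genes lies at the left edge with almost no scaled TPM in wild type, Sod1, Ppia and Meg3 among them, while Bcl6 lies at 0 in clone 2.

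A second feature of the files bears on single genes. StringTie gives each assembled transcript at most 1 reference gene, so reads of a gene can be listed under no gene or under a neighbour. Of the genes tested, 398 were listed at 0 in all 4 wild type libraries, and 346 of those had assembled transcripts over their exons there; 20 were listed at 0 in all 4 clone 2 libraries, 16 of them with such transcripts. Each gene was therefore also read as exon coverage: the TPM of all assembled transcripts on either strand, weighted by the share of the gene's exonic bases each one covers. By exon coverage 4012 of 13252 genes (30.3%) rose and 3472 (26.2%) fell, 56.5% in all. Of the 5830 genes called by reference gene, 4675 were called the same way by exon coverage and 66 the opposite way.

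The difference also ran with transcript length. The median log2 difference was 0.79 for genes whose longest transcript has up to 1000 bases, 1.25 for those with over 1000 and up to 2000 bases, 0.10 at over 4000 and up to 6000 bases and -0.77 above 8000 bases (Spearman's rho over genes -0.24, a description). By exon coverage the same bins had medians of 0.64, 0.91, -0.24 and -1.23. Both readings were therefore repeated after a smooth adjustment for transcript length and GC content, which left 51.2% of genes called by reference gene (26.0% higher and 25.2% lower) and 50.9% by exon coverage (25.8% higher and 25.1% lower). "All 4 readings" below means these 4: 1643 of the 9863 genes (16.7%) rose in all 4, and 1558 (15.8%) fell in all 4.

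**Figure D3:**
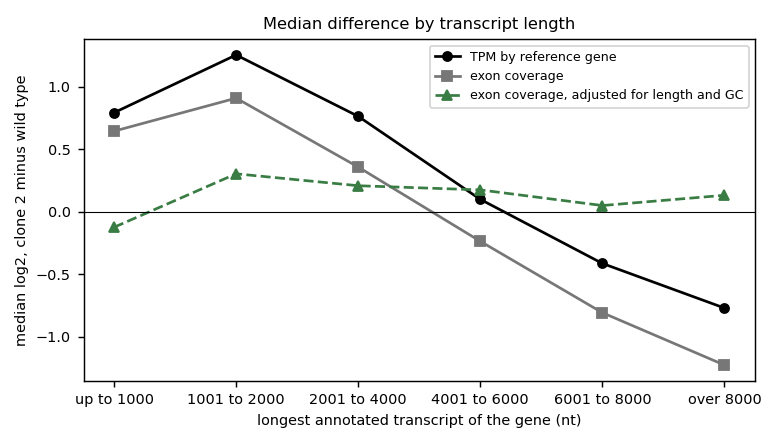
Median log2 difference, clone 2 minus wild type, by length of the longest annotated transcript (bases), for scaled TPM, exon coverage and exon coverage adjusted for length and GC. The first pair of lines peaks at 1.25 and 0.91 in the bin over 1000 and up to 2000 bases and falls to -0.77 and -1.23 above 8000 bases, and the adjusted line lies between -0.12 and 0.30.

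The label checks came next. In the region of LncMyoD, upstream of Myod1 on chromosome 7, an unnamed minus-strand transcript at 46345772 to 46351188 (mm10) that overlaps the annotated gene 1700025L06Rik (46345771 to 46349373) was assembled at 11.9 and 11.0 deposited TPM in plasmid-treated clone 2. It had 5.78 and 6.77 deposited TPM in plasmid-treated wild type, and none was assembled in untreated libraries of either line. Among the 8 libraries it was thus assembled only in the plasmid-treated ones, and it does not check the deletion. Myod1 was listed at 0.353, 0.269, 0.390 and 0 scaled TPM in clone 2, against 9.09, 7.82, 8.80 and 9.79 scaled TPM in wild type, a log2 difference of -2.99 ± 0.239 (SE, limma adjusted p = 2.46e-05). These are low levels in both lines, and the groups did not overlap.

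Fibroblast markers were listed in both lines, though the levels of many differed. Of 15 tested, 6 rose and 5 fell in clone 2, 5 and 3 of them in all 4 readings. With unscaled TPM 12 of 15 rose and none fell. S100a4 and Prrx1, both on this list and given below, went in opposite directions. The fibroblast marker list summed to 3308 to 4986 scaled TPM in clone 2 and 1921 to 2852 in wild type, with 15 of its 16 genes at 1 scaled TPM in at least 2 clone 2 libraries and 14 in at least 2 wild type libraries. Vim, the intermediate filament of mesenchymal cells, was at 293, 347, 339.8 and 301 scaled TPM in clone 2, against 304, 281, 272 and 303 scaled TPM in wild type, which overlap. Epithelial markers summed to at most 0.193 in clone 2 and 0.553 in wild type, and pluripotent and germ cell markers to at most 0.173 in clone 2 and 0 in wild type. The macrophage and leukocyte list summed to 19.6 to 30.4 in clone 2 and 160 to 234 in wild type, with Cd74, the invariant chain of antigen presentation, at 8.68 to 16.5 in clone 2 and 159 to 233 in wild type; 7 of its 11 genes were listed at 0 in clone 2 and 8 in wild type. That sum is mostly Cd74, and of the 3 macrophage and leukocyte genes tested 2 rose and 1 fell in clone 2. Cartilage and bone markers summed to 32.8 to 41.1 in clone 2 and 366 to 487 in wild type, mostly Sox9. Of the 3 cartilage and bone genes tested, 1 rose and 2 fell. The part of other cells in any result was not tested.

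Of the genes with the largest rises, several are housekeeping genes that were nearly unlisted in wild type. Sod1, the cytosolic superoxide dismutase (chromosome 16, 90220754 to 90226329), had 241, 263, 249.5 and 299 scaled TPM in clone 2, against 0.0446, 0.414, 0.684 and 0.402 scaled TPM in wild type. Its log2 difference was 7.59 ± 0.165 (SE, limma adjusted p = 1.27e-07). Exon coverage gave a smaller one: 46.6, 49.7, 46.2 and 57.0 in clone 2, against 2.97, 2.189, 1.43 and 1.60 in wild type, a log2 difference of 4.08 ± 0.165 (SE, limma adjusted p = 3.48e-08). Both readings put every clone 2 library above every wild type library, and the 2 sizes differ.

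Col6a1, a chain of collagen VI (chromosome 10, 76708792 to 76726168), shows how 1 library can be listed otherwise. It had 277, 306, 335 and 326 scaled TPM in clone 2, against 0.0345, 75.1, 0.0203 and 0.0346 scaled TPM in wild type. The second untreated wild type library was thus far from the others, yet by exon coverage the 4 wild type libraries lay at 58.3 to 80.5 and the clone 2 libraries at 293 to 342, a log2 difference of 2.20 ± 0.0935 (SE, limma adjusted p = 4.78e-08). Hspa8, the constitutive Hsc70 chaperone, rose by 7.27 ± 0.228 (SE) by reference gene and by 2.71 by exon coverage. Ppia, cyclophilin A, a peptidyl-prolyl isomerase with many processed copies in the genome that can share its reads, was at 230.0 to 398 scaled TPM in clone 2 and listed at 0 in all 4 wild type libraries. By exon coverage Ppia was at 82.7 to 139 in clone 2 and 9.57 to 31.2 in wild type, a log2 difference of 2.46.

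A rise from a level well above 0 in wild type was that of S100a4. S100a4, a calcium-binding protein of motile fibroblasts (chromosome 3, 90603771 to 90606045), had 761, 769.7, 691 and 714 scaled TPM in clone 2, against 56.8, 50.6, 53.5 and 55.1 scaled TPM in wild type, a log2 difference of 3.74 ± 0.0780 (SE, limma adjusted p = 1.11e-07). The 4 clone 2 libraries lie close together and far above wild type. Lgals3, the lectin galectin-3, was at 25.7 to 27.0 scaled TPM in clone 2 and listed at 0 in all 4 wild type libraries. Its exon coverage was 21.4 to 23.8 in clone 2 and 0.966 to 1.67 in wild type, a log2 difference of 3.37. Cdkn2b and Meg3, described below, were also listed at 0 in all 4 wild type libraries.

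Genes with the largest falls were at 0 or near it in clone 2, or far lower there than in wild type. Adi1, an enzyme of methionine salvage (chromosome 12, 28675231 to 28682175), had 9.08, 7.70, 8.56 and 7.96 scaled TPM in clone 2, against 569.8, 583, 589 and 608 scaled TPM in wild type, a log2 difference of -5.98 ± 0.0891 (SE, limma adjusted p = 1.11e-07); by exon coverage it was -5.85. Bcl6, a transcriptional repressor (chromosome 16, 23965052 to 23988852), was listed at 0 in all 4 clone 2 libraries and at 141, 156, 184 and 177 scaled TPM in wild type. Its exon coverage was 0.612 to 0.989 in clone 2 and 72.1 to 92.5 in wild type.

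Further large falls were of genes well above 100 scaled TPM in wild type. Uprt, related to uracil phosphoribosyltransferases, was at 1.90 to 2.12 scaled TPM in clone 2 and 175 to 199 in wild type. Dcaf7, a WD-repeat adaptor protein, was at 7.28 to 9.28 in clone 2 and 419 to 491 in wild type. Trp53inp2, a protein of autophagy, was at 2.396 to 4.95 in clone 2 and 340.1 to 409 in wild type. For Uprt, Dcaf7 and Trp53inp2 in that order, the log2 differences were -5.94, -5.61 and -6.32 by reference gene and -5.76, -5.44 and -4.49 by exon coverage. With the deposited TPM left unscaled, the genes of this and the preceding paragraph were lower in clone 2 as well.

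**Figure D4:**
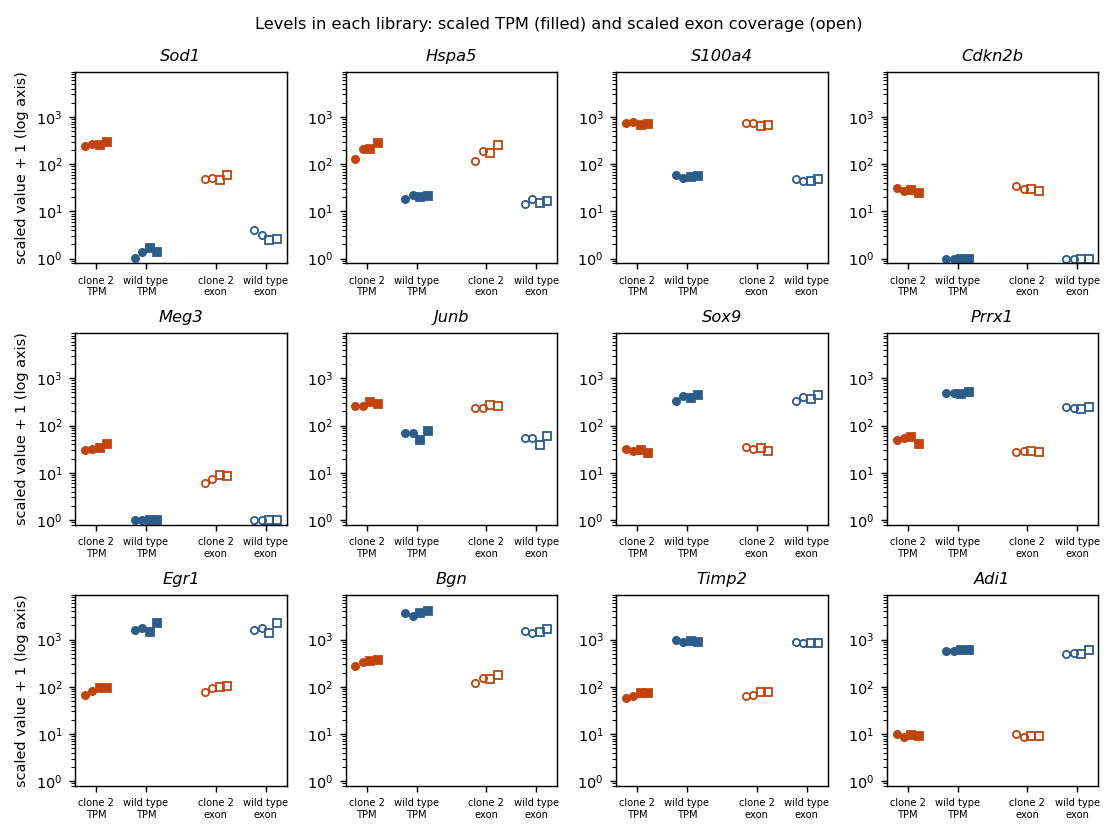
Scaled TPM + 1 (log axis) of 12 genes in each library, clone 2 left of wild type; filled points are TPM by reference gene and open points exon coverage. Sod1, Hspa5, S100a4, Cdkn2b, Meg3 and Junb lie higher in clone 2, and Sox9, Prrx1, Egr1, Bgn, Timp2 and Adi1 lower, with no overlap by either measure; with unscaled TPM Prrx1 was higher in clone 2.

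Genes of protein synthesis rose together. Of 68 cytosolic ribosomal proteins tested, 57 rose and none fell (median log2 difference 2.39, against 0.60 over all genes tested). By exon coverage 62 of 74 rose and 1 fell, and 32 of the 68 rose in all 4 readings, against 16.7% of all genes. Rpl3, a core protein of the large subunit, had 162, 156, 142 and 140.5 scaled TPM in clone 2, against 5.51, 0, 7.52 and 4.13 scaled TPM in wild type; by exon coverage its log2 difference was 3.19. Rps23, of the small subunit, had 86.3, 87.9, 79.9 and 80.7 scaled TPM in clone 2, against 6.59, 2.92, 0 and 5.48 scaled TPM in wild type, with 4.26 by exon coverage. Rps18 shows the limit of these counts: it rose by 5.41 ± 0.188 (SE) by reference gene and differed by -0.05 by exon coverage, where it was not called. Ribosomal protein genes have many near-identical processed copies and short transcripts, so the size of each rise is uncertain.

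Of 30 translation factors 19 rose and none fell (median log2 difference 1.78), 14 of them in all 4 readings. Eif3e, a subunit of the initiation factor that joins mRNA to the small ribosomal subunit, had 139, 172, 144 and 166 scaled TPM in clone 2, against 10.4, 12.4, 11.1 and 16.7 scaled TPM in wild type, a log2 difference of 3.53 ± 0.161 (SE, limma adjusted p = 1.73e-06). Eif4a2, an RNA helicase of initiation, rose by 3.20 ± 0.284 (SE). Eef1a1 and Eef2, the main elongation factors, were not called, at log2 differences of 1.00 and 0.26.

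The protein-quality machinery moved the same way. Of 30 proteasome subunits 26 rose and none fell (median log2 difference 2.37), 18 in all 4 readings. Psmb6, a catalytic subunit of the core particle, had 81.6, 84.0, 89.3 and 100.1 scaled TPM in clone 2, against 10.9, 9.65, 9.83 and 11.7 scaled TPM in wild type, a log2 difference of 2.96 ± 0.116 (SE, limma adjusted p = 8.99e-07). Psmc5, an ATPase of the regulatory cap, rose by 2.94 ± 0.292 (SE), with 2.78 by exon coverage. Of 22 cytosolic chaperones 13 rose and none fell (median 1.58), 8 in all 4 readings. Cct4, of the ring that folds actin and tubulin, rose by 2.26 ± 0.158 (SE), while the heat-inducible Hspa1a and Hspa1b were not called.

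Of 24 genes of endoplasmic reticulum stress and the amino acid response, 14 rose and 3 fell (median log2 difference 1.60). Hspa5, the main chaperone of the reticulum (chromosome 2, 34771970 to 34777547), had 129, 207, 204 and 279 scaled TPM in clone 2, against 17.7, 21.4, 19.5 and 20.2 scaled TPM in wild type, a log2 difference of 3.27 ± 0.199 (SE, limma adjusted p = 7.07e-06). Its clone 2 libraries spread more than 2-fold but lie wholly above wild type. Pdia6, a disulfide isomerase, rose by 3.30 ± 0.153 (SE), and Atf4, the transcription factor of the amino acid branch, rose by 3.41 ± 0.648. Its targets split: Phgdh, of serine synthesis, rose by 3.19 ± 0.674 (SE), while Psat1 of the same pathway fell by 1.92 and Ddit4, an inhibitor of mTORC1, fell by 4.29. Psat1 was higher in clone 2 with unscaled TPM, Ddit4 lower there too.

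Nuclear-encoded subunits of the respiratory chain and ATP synthase rose in 42 of 54 cases and fell in 2 (median log2 difference 2.103), and 27 rose in all 4 readings. By exon coverage 47 of 55 rose. Cox6b1, a subunit of cytochrome c oxidase, had 102, 99.2, 97.9 and 105 scaled TPM in clone 2, against 15.7, 10.6, 13.0 and 10.5 scaled TPM in wild type, a log2 difference of 2.94 ± 0.147 (SE, limma adjusted p = 2.71e-06). Sdhb, the iron-sulfur subunit of succinate dehydrogenase, had 41.2, 41.5, 43.96 and 46.2 scaled TPM in clone 2, against 7.14, 0, 7.54 and 4.69 scaled TPM in wild type, 1 wild type library being listed at 0; by exon coverage its difference was 2.80 ± 0.187 (SE, limma adjusted p = 9.14e-07). The exceptions were Sdhc, a membrane anchor of the same enzyme, at 22 to 23.8 in clone 2 and 289.6 to 354 in wild type, and Atp5b, the catalytic subunit of ATP synthase, at 300.2 to 325 in clone 2 and 1219 to 1501 in wild type. With unscaled TPM Atp5b was higher in clone 2, and Sdhc (-0.37) was not called.

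Promoters of this list were searched because its members moved together. In RefSeq promoters of the GRCm38.p6 build, from 250 bases before to 50 bases after the start, the ETS-type motif CCGGAAG on either strand was in 11 of 42 respiratory chain promoters (26.2%), against 21.4% of 6791 promoters of tested genes and 9.08% of all 27025. The share in the list is thus near that of the tested genes. All list members with a promoter were counted, called or not. A longer NRF1-type motif, not spelled out here, was in 11 of 42 (26.2%), against 12.2% of tested genes and 4.68% of all. CCGGAAG was also in 22 of 55 ribosomal protein promoters (40%) and in 9 of 25 proteasome promoters (36%). A pair of promoters is shown from called list members whose promoters hold CCGGAAG, with the motif in capitals. Both genes also rose in all 4 readings. In the promoter of Sdhb the motif lies after the start, and in that of Cox6b1 it lies 28 bases before the start on the opposite strand.
Sdhb (chr4:140961021-140961320, plus strand): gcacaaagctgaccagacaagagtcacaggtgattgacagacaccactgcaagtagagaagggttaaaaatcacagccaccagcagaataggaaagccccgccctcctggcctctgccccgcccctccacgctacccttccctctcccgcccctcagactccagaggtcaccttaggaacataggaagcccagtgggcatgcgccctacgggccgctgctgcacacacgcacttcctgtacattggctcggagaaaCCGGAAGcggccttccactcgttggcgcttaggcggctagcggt
Cox6b1 (chr7:30626065-30626364, minus strand): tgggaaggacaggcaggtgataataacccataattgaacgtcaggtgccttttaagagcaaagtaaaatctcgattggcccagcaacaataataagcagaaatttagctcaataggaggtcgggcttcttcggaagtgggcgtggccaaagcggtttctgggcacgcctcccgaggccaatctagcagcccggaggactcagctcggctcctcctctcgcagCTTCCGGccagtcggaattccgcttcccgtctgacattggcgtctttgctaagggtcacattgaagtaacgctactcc

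The 15 genes listed as mitochondrially encoded did not move as one: 5 rose and 5 fell, 4 and 4 of them in all 4 readings. Ranks called none of the mitochondrially encoded genes. A rank call needs a shift of 10 percentile points, for which genes near the top in both lines have little room, so this does not show whether they differ. Length and GC adjustment called 4 higher and 8 lower, and unscaled TPM 12 higher and 1 lower. mt-Co3, a core subunit of cytochrome c oxidase, was at 1072 to 1474 scaled TPM in clone 2 and 155 to 214 in wild type (log2 difference 2.78). mt-Nd5, a subunit of complex I, was at 456 to 627 in clone 2 and 3588 to 4189.5 in wild type (-2.83), and it was higher in clone 2 with unscaled TPM. The large mitochondrial ribosomal RNA mt-Rnr2 was at 2027 to 2716 in clone 2 and 52197 to 66789.8 in wild type.

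**Figure D5:**
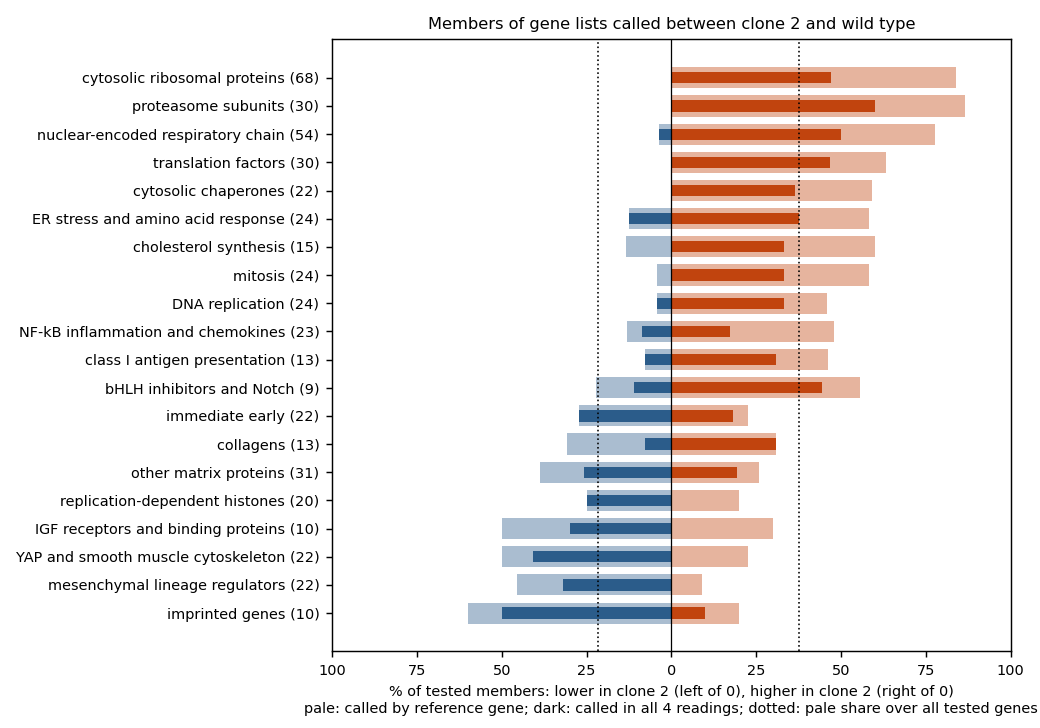
Percent of tested members of each gene list called higher (right) or lower (left) in clone 2; pale bars are calls by reference gene, dark bars calls in all 4 readings, and dotted lines the shares over all genes tested (37.6% higher, 21.5% lower). Ribosomal proteins, proteasome and respiratory chain subunits exceed the dotted line for higher. Mesenchymal regulators, YAP and smooth muscle genes and imprinted genes exceed that for lower. With unscaled TPM more members of these last 3 lists were called higher than lower, as were 9020 of all 10987 genes tested that way.

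Cell cycle genes stood at low levels. Of 24 mitosis genes 14 rose and 1 fell (median log2 difference 1.58), and 8 rose in all 4 readings; by exon coverage 9 rose and 2 fell. Cdc20, an activator of the anaphase-promoting complex, had 19.98, 18.8, 19.2 and 17.3 scaled TPM in clone 2, against 0, 0.343, 0 and 0 scaled TPM in wild type, with 2.75 by exon coverage. Of 24 DNA replication genes 11 rose and 1 fell. Pcna, the sliding clamp of DNA polymerase, had 23.3, 26.2, 24.9 and 28.2 scaled TPM in clone 2, against 0.200, 0.507, 0.620 and 0.117 scaled TPM in wild type, with 2.23 by exon coverage. Mcm7, a helicase subunit, was lower, at 5.80 to 13.3 in clone 2 and 36.2 to 69.2 in wild type, but higher with unscaled TPM, as was Aurkb, the mitotic kinase that was the 1 mitosis gene called lower.

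Cdkn2b, which encodes the cyclin-dependent kinase inhibitor p15 (chromosome 4, 89306299 to 89311039), had 29.9, 26.2, 27.4 and 23.4 scaled TPM in clone 2 and was listed at 0 in all 4 wild type libraries, where its exon coverage was 0 as well. Clone 1 without MyoD had 16.8, 14.2, 17.7 and 17.8 scaled TPM. The neighbouring genes, chosen after their values were seen, differed from it: Cdkn2a, which encodes p16 and p19ARF, was at 0.351, 0.289, 0.514 and 0.765 in clone 2 and listed at 0 in wild type and in clone 1, too low to be tested. Mtap, which lies beyond Cdkn2a and encodes an enzyme of methionine salvage, had 44.5, 49.1, 41.3 and 40.5 scaled TPM in clone 2, against 46.5, 39.7, 40.0 and 43.2 scaled TPM in wild type and was not called (log2 difference 0.05). Cdkn1b, the p27 inhibitor, was at 4.52 to 5.83 in clone 2 and 13.5 to 17.9 in wild type, lower in all 4 readings and higher with unscaled TPM.

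Imprinted genes, which are transcribed from 1 parental copy, fell in 6 of 10 cases and rose in 2 (median log2 difference -1.62); 5 fell in all 4 readings, and 1 rose in all 4. With unscaled TPM, 6 of 9 rose and 2 fell. Meg3, a maternally expressed noncoding RNA (chromosome 12, 109541001 to 109571726), had 28.9, 30.1, 33.0 and 39.1 scaled TPM in clone 2 and was listed at 0 in all 4 wild type and all 4 clone 1 libraries, and its exon coverage was 0 in wild type and at most 0.00353 in clone 1. Rian, the next noncoding RNA of the same imprinted domain, had 4.65, 6.52, 4.30 and 9.65 scaled TPM in clone 2, against 0.128, 0.0527, 0.00996 and 0.334 scaled TPM in wild type, a log2 difference of 2.64 ± 0.282 (SE, limma adjusted p = 0.000111). Mirg, the third, was at 0.300, 0.195, 0.262 and 0.752 in clone 2 and 0, 0, 0.146 and 0 in wild type. The paternally expressed Dlk1 was at 0, 0, 0 and 0.0905 in clone 2 and 0, 1.22, 0 and 0 in wild type. Neither Mirg nor Dlk1 was tested. Rian, Mirg and Dlk1 were all named, as neighbours of Meg3, after their values were seen.

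The falling imprinted genes were Igf2, Grb10, Plagl1, Gnas, Peg10 and Impact. Plagl1, a zinc finger regulator of this network, had 0.00281, 2.69, 0.109 and 0.00184 scaled TPM in clone 2, against 29.6, 19.6, 24.4 and 18.2 scaled TPM in wild type, a log2 difference of -4.05 ± 0.444 (SE, limma adjusted p = 0.000126). Impact, which restrains the kinase GCN2, was at 24.2 to 40.7 in clone 2 and 343 to 386 in wild type (-3.40), a difference that was not called in unscaled TPM. Igf2, a growth factor of the embryo, was at 0.0379 to 0.312 in clone 2 and 3.83 to 16.8 in wild type.

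Of 10 genes of insulin-like growth factor signalling 3 rose and 5 fell, and 3 fell in all 4 readings; with unscaled TPM 7 of 10 rose and 1 fell. Igf1, the ligand, had 8.67, 10.1, 9.15 and 8.79 scaled TPM in clone 2, against 53.4, 61.5, 64.2 and 67.6 scaled TPM in wild type, a log2 difference of -2.62 ± 0.127 (SE, limma adjusted p = 2.32e-06). Igfbp4, a secreted binding protein, was at 0.0980 to 1.22 in clone 2 and 46.4 to 51.9 in wild type. Irs1, the adaptor below the receptor, fell by 2.67, and the receptor Igf1r rose by 1.62 ± 0.335 (SE) by reference gene but was not called by exon coverage. Igf1 and Irs1 were higher in clone 2 with unscaled TPM.

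Of 22 transcription factors in the list of mesenchymal lineage regulators, 10 fell and 2 rose (median log2 difference -0.88). Of the 22, 7 fell in all 4 readings and none rose in all 4. Quantile normalization gave 12 lower and none higher. With unscaled TPM 12 of 22 were higher and 1 lower, against 9020 higher and 281 lower of all 10987 genes tested that way. Sox9, the regulator of cartilage formation (chromosome 11, 112782224 to 112787760), had 30.2, 27.6, 29.8 and 25.4 scaled TPM in clone 2, against 334, 412, 378 and 442 scaled TPM in wild type, a log2 difference of -3.74 ± 0.116 (SE, limma adjusted p = 3.74e-07). Prrx1, of limb and fibroblast mesenchyme, had 48.1, 52.7, 55.0 and 39.0 scaled TPM in clone 2, against 496, 482, 455 and 520.3 scaled TPM in wild type, a log2 difference of -3.31 ± 0.122 (SE, limma adjusted p = 6.7e-07). No clone 2 library reached a wild type library for either gene.

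Snai1, Snai2, Zeb1 and Zeb2, repressors of the epithelial state, and Twist1 were among the 10 that fell; Twist1 (-1.14) was not called by exon coverage. Snai2 was at 21.2 to 26.8 scaled TPM in clone 2 and 116 to 193 in wild type (-2.68), and Snai1 at 9.91 to 16.9 in clone 2 and 76.1 to 91.5 in wild type (-2.64). Zeb2 was at 6.59 to 8.65 in clone 2 and 43.2 to 73.5 in wild type (-2.79). Runx2, of bone formation, was at 3.61 to 5.66 in clone 2 and 31.0 to 49.2 in wild type (-2.84). The rises were Twist2 (1.00) and Pparg (1.19), the adipocyte regulator, both lost by exon coverage. With unscaled TPM Prrx1 and Runx2 were higher in clone 2, by 0.10 and 0.31, and Sox9 was lower by a log2 difference of -0.35 and not called.

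Of 13 collagens 4 rose and 4 fell by reference gene, and 4 rose and 1 fell in all 4 readings. By exon coverage 8 of 16 collagens rose and 5 fell, and with length and GC adjustment 9 rose and 2 fell. Of 31 other matrix proteins 8 rose and 12 fell, 6 and 8 of them in all 4 readings. By ranks, where a call needs a shift of 10 percentile points, 7 of these 31 rose and 2 fell. With unscaled TPM 10 of 14 collagens and 25 of 32 other matrix proteins rose and none fell. Col3a1, of collagen III, had 782, 736, 1064 and 830.3 scaled TPM in clone 2, against 197, 171, 172 and 102 scaled TPM in wild type, a log2 difference of 2.43 ± 0.221 (SE, limma adjusted p = 4.7e-05). Dcn, the proteoglycan decorin, was at 388 to 698 in clone 2 and 105 to 131 in wild type (2.08).

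Other matrix genes fell. Bgn, the related proteoglycan biglycan (chromosome X, 73483602 to 73495933), had 274, 335, 346 and 365 scaled TPM in clone 2, against 3710.3, 3163, 3624 and 4108 scaled TPM in wild type, a log2 difference of -3.47 ± 0.102 (SE, limma adjusted p = 3.15e-07). Postn, the matricellular protein periostin, was at 291 to 468 in clone 2 and 2202 to 3875 in wild type (-2.87), and it was 0.57 higher with unscaled TPM. Timp2, an inhibitor of matrix metalloproteases, was at 57.8 to 73.6 in clone 2 and 881 to 968 in wild type (-3.78). With unscaled TPM the differences of Bgn (-0.03), Timp2 (-0.36) and Nid1 (-0.05) were no longer called. The nidogens, which link laminin to collagen IV, moved in opposite directions: Nid1 was at 30.2 to 49.9 in clone 2 and 414 to 536 in wild type, and Nid2 at 102 to 128 in clone 2 and 16.6 to 21.1 in wild type.

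Of 22 YAP targets and smooth muscle cytoskeleton genes, 5 rose and 11 fell (median log2 difference -0.84), and 9 fell in all 4 readings with none rising in all 4; with unscaled TPM 19 of 22 rose and none fell. Vcl, the focal adhesion protein vinculin, had 30.8, 56.7, 44.4 and 59.6 scaled TPM in clone 2, against 418, 421, 470.3 and 467 scaled TPM in wild type, a log2 difference of -3.23 ± 0.190 (SE, limma adjusted p = 6.1e-06). Amotl2, a YAP-binding protein and YAP target, had 33.7, 33.1, 29.5 and 33.0 scaled TPM in clone 2, against 264, 272, 302 and 335 scaled TPM in wild type, a log2 difference of -3.14 ± 0.104 (SE, limma adjusted p = 4.71e-07). Both were higher with unscaled TPM, by 0.18 and 0.26. Ccn1 and Ccn2, the best known YAP targets, were not called, at log2 differences of -0.30 and 1.75, and Acta2, smooth muscle actin, rose by 1.25 ± 0.113 (SE).

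Their promoters were searched for the TEAD-type motif GGAATG and for the CArG box of serum response factor. GGAATG on either strand was in 11 of 19 promoters of the list (57.9%), against 11.6% of promoters of tested genes and 14.6% of all; the CArG box was in 3 of 19 (15.8%), against 1.33% of tested genes and 1.54% of all. A match is a description of letters and not a site. All 19 list members with a promoter were counted, whether they rose, fell or were not called. The list was drawn up as YAP targets and smooth muscle genes, so its motif share does not bear on clone 2. Vcl and Amotl2 are shown as called list members whose promoters hold GGAATG, and both genes also fell in all 4 readings. Vcl holds GGAATG 143 bases and a CArG box 227 bases before the start, and Amotl2 holds the TEAD-type motif on the opposite strand 65 bases before it; the motifs are in capitals and do not overlap.
Vcl (chr14:20929148-20929447, plus strand): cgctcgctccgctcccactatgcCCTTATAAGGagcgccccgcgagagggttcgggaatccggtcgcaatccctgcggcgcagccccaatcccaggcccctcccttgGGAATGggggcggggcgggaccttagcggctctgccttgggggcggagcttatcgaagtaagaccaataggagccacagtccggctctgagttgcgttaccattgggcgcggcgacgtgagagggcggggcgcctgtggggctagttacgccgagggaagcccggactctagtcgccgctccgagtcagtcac
Amotl2 (chr9:102717554-102717853, plus strand): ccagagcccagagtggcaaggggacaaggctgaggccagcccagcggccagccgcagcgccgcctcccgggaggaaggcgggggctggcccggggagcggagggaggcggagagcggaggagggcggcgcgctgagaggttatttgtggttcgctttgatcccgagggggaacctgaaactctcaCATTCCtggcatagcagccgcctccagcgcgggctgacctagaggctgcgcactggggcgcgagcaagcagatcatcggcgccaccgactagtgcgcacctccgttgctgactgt

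Immediate-early genes, which serum and stress switch on within minutes, went both ways: 5 of 22 rose and 6 fell, and 4 rose and 6 fell in all 4 readings. With unscaled TPM 17 of 21 rose and none fell. Egr1, a zinc finger factor (chromosome 18, 34859823 to 34864984), had 67.0, 82.3, 91.1 and 95.4 scaled TPM in clone 2, against 1608, 1758, 1461 and 2268 scaled TPM in wild type, a log2 difference of -4.38 ± 0.151 (SE, limma adjusted p = 5.46e-07). Zfp36, which speeds decay of AU-rich mRNA, was at 30.7 to 56.3 in clone 2 and 806 to 1196 in wild type (-4.40). Junb, a subunit of AP-1, had 259.9, 261, 321 and 291 scaled TPM in clone 2, against 69.0, 68.5, 48.5 and 74.1 scaled TPM in wild type, a log2 difference of 2.12 ± 0.154 (SE, limma adjusted p = 1.59e-05). Fosl2, another AP-1 subunit, was at 0.228 to 13.2 in clone 2 and 96.8 to 117 in wild type, and Fos itself was not called (0.66). With unscaled TPM Egr1, Zfp36 and Fosl2 stood at -0.95, -0.99 and -0.94 and were not called.

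Of 9 inhibitors of basic helix-loop-helix factors and Notch genes, 5 rose and 2 fell (9 and 1 of 11 with unscaled TPM). Id1, Id2 and Id3, which bind E proteins and keep them from DNA, all rose, with log2 differences of 3.10, 1.90 and 2.28; Id1 had 60.9, 61.5, 63.7 and 53.8 scaled TPM in clone 2, against 6.28, 7.77, 4.45 and 6.37 scaled TPM in wild type. Hes1, a repressor that Notch switches on, had 23.6, 113, 99.9 and 126 scaled TPM in clone 2, against 0.212, 0, 2.43 and 4.54 scaled TPM in wild type, a log2 difference of 5.14 ± 0.483 (SE, limma adjusted p = 5.57e-05). The first untreated clone 2 library was lower than the other clone 2 libraries, and all 4 lay above wild type. The receptor Notch2 was at 0 to 7.19 in clone 2 and 56.1 to 77.7 in wild type.

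Inflammatory and antigen presentation genes were mixed. Of 23 NF-kB and chemokine genes 11 rose and 3 fell (22 and 0 of 24 with unscaled TPM), and 4 rose in all 4 readings. Cxcl1, a neutrophil chemokine, was at 333 to 486 in clone 2 and 74.4 to 136 in wild type (2.103), and Cx3cl1, fractalkine, at 34.1 to 44.6 in clone 2 and 234 to 291 in wild type (-2.73), which turned to 0.67 with unscaled TPM. Of 13 class I presentation genes 6 rose and 1 fell. B2m, the common light chain, was at 595 to 709 in clone 2 and 187 to 226 in wild type (1.58), while H2-Q4, a heavy chain that shares sequence with its paralogs, was listed at 0 in all clone 2 libraries and at 50.4 to 77.6 in wild type.

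Of 15 genes of cholesterol synthesis 9 rose and 2 fell, and 5 rose in all 4 readings. Hmgcs1, of the first committed steps, had 9.46, 10.9, 10.7 and 12.2 scaled TPM in clone 2, against 0, 0, 0.730 and 0 scaled TPM in wild type; Sqle, squalene epoxidase, had 5.73, 6.82, 8.93 and 13.5 in clone 2 and was listed at 0 in all 4 wild type libraries. The exon coverage of Sqle was 3.15 to 7.36 in clone 2 and 0 to 0.417 in wild type. The list was low throughout. Counts for the other lists follow in the order risen and fallen. They were the p53 response (7 of 17 rose and 5 fell), the interferon response (7 and 4 of 19), glycolysis (9 and 3 of 17), Nrf2 and redox genes (6 and 3 of 18), matrix proteases and their inhibitors (7 and 4 of 19) and splicing factors (13 and 8 of 36). With unscaled TPM the counts were 17 and 0 of 19 for the p53 response, 20 and 0 of 21 for the interferon response, 15 and 0 of 16 for glycolysis, 16 and 0 of 18 for Nrf2 and redox, 15 and 0 of 20 for matrix proteases and inhibitors and 33 and 1 of 35 for spliceosome and RNA-binding proteins.

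Of 11 structural and nuclear noncoding RNAs 5 rose and 4 fell, 3 and 3 of them in all 4 readings; with unscaled TPM 6 rose and 3 fell. Those that fell were Rn7s1, Rn7s2, Rn7sk and Xist. Rn7s1, a copy of the 7SL RNA of the signal recognition particle, had 1.09, 0.316, 1.16 and 0.458 scaled TPM in clone 2, against 261, 343, 244 and 272 scaled TPM in wild type, a log2 difference of -7.35 ± 0.218 (SE, limma adjusted p = 3.17e-07). Rn7sk, which holds back the elongation factor P-TEFb, was at 2.81 to 4.68 in clone 2 and 90.9 to 146 in wild type. Of 20 replication-dependent histone genes, whose mRNA ends in a stem-loop, 4 rose and 5 fell, and the 5 fell in all 4 readings; with unscaled TPM 16 of 22 rose and 3 fell. Hist1h4d, a histone H4 gene with near-identical copies, was at 3.15 to 5.12 in clone 2 and 141 to 191 in wild type. The part of the libraries' ribosomal share in these differences was not tested.

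Whether the difference between lines changed with the plasmid was tested as an interaction in limma, which called 3 genes (0.0304% of 9863; 659 at an unadjusted p under 0.05). Col1a2, of collagen I, had 9.14, 6.003, 999 and 872 scaled TPM in clone 2 and 6.72, 12.5, 8.34 and 11.1 in wild type. Its change of difference was 6.73 (limma adjusted p = 0.0298), but its exon coverage was 350.4, 345, 461 and 418 in clone 2 and 78.1, 103, 120.0 and 125 in wild type, with no such jump. Sap130, of a histone deacetylase complex, had 2.32, 3.57, 1.73 and 0.942 in clone 2 and 5.98, 6.38, 193 and 197 in wild type, where exon coverage was 83.7, 84.3, 83.0 and 84.1. Tbl3, of ribosome assembly, was the third, and none of the 3 was called with replicates as blocks. Leaving out 1 library gave 0 calls without any 1 of the clone 2 libraries, 1 without the second plasmid-treated wild type library, and 9 and 62 without the first and the second untreated wild type library.

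Clone 1 is a second knockout clone, with the high ribosomal share of the wild type libraries. Clone 2 minus clone 1 called 4040 of 9655 genes higher (41.8%) and 1695 lower (17.6%), 59.4% in all. Clone 1 minus wild type called 66 of 7968 higher (0.828%) and 223 lower (2.80%), 3.63% in all (165 calls without the first plasmid-treated and 174 without the second untreated wild type library), and it shares the wild type libraries with the main comparison. The values of single genes are therefore given side by side. Sox9 was at 25.4 to 30.2 in clone 2, 673 to 753 in clone 1 and 334 to 442 in wild type. Egr1 was at 67.0 to 95.4 in clone 2, 997 to 1129 in clone 1 and 1461 to 2268 in wild type, and Hspa5 at 129 to 279 in clone 2, 18.7 to 26.3 in clone 1 and 17.7 to 21.4 in wild type. Adi1 was at 7.70 to 9.08 in clone 2, 352 to 446 in clone 1 and 569.8 to 608 in wild type. For S100a4 the values were 691 to 769.7 in clone 2, 29.3 to 37.4 in clone 1 and 50.6 to 56.8 in wild type. Myod1 was at 0 to 0.390 in clone 2, 12.4 to 16.2 in clone 1 and 7.82 to 9.79 in wild type.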

How the data were processed

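RNA was isolated as total RNA, poly(A) RNA was reverse transcribed to full-length cDNA with SMART-Seq v4, and libraries made by tagmentation were sequenced on a DNBSEQ-G400, per the labels' protocols; the kit does not mark strand. The genome is mm10, with HISAT2 2.1.0 and StringTie 1.3.3 among the tools, per the submitters' processing notes, which also list SAMtools 1.3, Trimmomatic 0.36 and bcl2fastq 2.19; StringTie 2.1.2 and a GENCODE vM21 guide stand in the file headers. The deposited file of each library lists assembled transcripts with their TPM, FPKM and coverage. TPM keeps no read depth. Depth in Gb is therefore taken as the median over transcripts of coverage divided by FPKM, a level corrected for length and depth. Counting error is unknown. Headers of the clone 2 files name their gene table otherwise than the rest; the labels give no batch.

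TPM was summed over transcripts with the same reference gene, divided by a median-of-ratios factor (3.46 to 3.74 in clone 2, 0.237 to 0.413 in wild type, 0.195 to 0.238 in clone 1) and tested on log2(scaled TPM + 1) with limma 3.58.1 in R 4.3.3, with line and plasmid as terms and Benjamini-Hochberg adjustment over all 9863 genes. Genes needed 1 scaled TPM in 4 of 8 libraries; calls needed an adjusted p under 0.05 and a log2 difference of 1. Makeup was compared by an exact permutation test. Exon coverage and the adjustment for length and GC were added after seeing the data. The script was tested on simulated data.

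Genes named are those with the 10 largest rises and falls called also by ranks and by overlap with annotated genes. Up to 5 of the highest in each direction among those listed at 0 in the other line were added. The leading called members of each list were named too. Other list members were named after their values were seen. The members and the lists were chosen with earlier results of these data known. Promoter sequences are from RefSeq, matched by symbol. Alternatives are given in the closing section.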

Additional observations from a re-analysis of the deposited data

Results flagged for a closer look

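Among the 80 groups of 4 libraries examined for a library far from the others, 9 had one. The cutoff flags about 1 in 20 groups of normally distributed values. A gene listed above 0 in a single library is flagged at any level, so the 9 cannot be set against that rate. In clone 2 the first untreated library had 27.4% of TPM without a reference gene, against 17.7% to 19.2% in the other 3 clone 2 libraries. The second plasmid-treated clone 2 library had the lowest depth of its line, 3.65 Gb. In wild type the second untreated library had 75.1 scaled TPM of Col6a1, and 1 library each stood apart for Cbx3, a heterochromatin protein (4.52), Vdac3, a mitochondrial outer membrane channel (5.38), and Mrpl33, a mitochondrial ribosomal protein (8.36). The Y-linked genes listed stood near 0 in both lines: a single clone 2 library listed Ddx3y at 0.0290, and single libraries listed Uty at 0.00123 in clone 2 and 0.00948 in wild type.

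By reference gene, an interaction of line and plasmid was called for Sap130 (-5.53 on the log2 scale), Col1a2 (6.73) and Tbl3 (-5.84). Each had a limma adjusted p of 0.0298. With replicates as blocks and by overlap assignment the calls numbered 0. The exon coverage of Sap130 and Col1a2, given above, had no such jump. Tbl3 had 4.71 and 4.99 scaled TPM in untreated and 2.63 and 2.05 in plasmid-treated clone 2, against 0.031 and 0.030 in untreated and 33.9 and 31.3 in plasmid-treated wild type. Its exon coverage was 4.58 and 4.50 in untreated and 3.12 and 3.60 in plasmid-treated clone 2, against 17.7 and 19.7 in untreated and 27.2 and 28.1 in plasmid-treated wild type.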

How the results depend on the processing

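The count of genes called between clone 2 and wild type without MyoD was 5830; it was 9301 with deposited TPM left unscaled, 3740 with a pseudocount of 5, and within 1.5 times under the other alternatives, including 5449 to 5853 when 1 library was left out. The plasmid dependence of the clone 2 difference called 3 genes, 1 with unscaled TPM, 0 by overlap assignment and 0 to 62 without 1 library. Clone 2 minus clone 1 called 9580 genes with unscaled TPM and 5282 to 5863 without 1 library. Clone 1 minus wild type called 902 with unscaled TPM, 520 by overlap assignment and 165 to 278 without 1 library. In percentage points, clone 2 minus wild type, the ribosomal share differed by -52.1 in untreated and -62.6 in plasmid libraries alone (-59.2 to -54.7 without 1 library), the mitochondrial share by 4.39 and 7.27 (5.35 to 6.13), the share without a reference gene by -30.7 to -19.5 and the protein-coding share by 47.6 to 50.7 without 1 library, and genes at 1 TPM by 6434 to 6897.

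Replicate numbers did not pair the libraries (correlations of same-numbered libraries' deviations 0.0262, 0.0064, 0.0167 and 0.0022); with the replicate block the 5830 calls became 5835, 5735 of them shared, the 3 plasmid-dependent calls became 0 and the 289 of clone 1 minus wild type became 175.

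Of the values of named genes under alternatives, 5245 kept direction and call, 306 lost the call, 1 gained it and 58 turned direction. With unscaled TPM the log2 differences that turned were Gapdh 2.31, Actb 2.56, Xist 0.82, Nr4a1 0.48, Phlda1 1.49, Vcl 0.18, Amotl2 0.26, Zyx 1.03, Lats2 1.02, Col6a2 1.32, Postn 0.57, Mmp19 0.64, Aurkb 2.07, Mcm7 0.98, Ccnd3 1.73, Cdkn1b 1.58, Zmat3 0.28, Psat1 1.36, Srebf2 1.22, Fdft1 1.89, G6pdx 1.21, Aldoa 0.74, Bnip3 1.33, Igtp 0.92, Ifit2 1.07, Cx3cl1 0.67, Ccl5 0.64, mt-Nd5 0.61, Atp5b 1.28, U2af2 1.01, Irs1 0.51, Igf1 0.67, Igfbp3 1.67, Prrx1 0.10, Runx2 0.31, Notch1 0.21, Mef2d 1.47 and Map2 0.50. Exon coverage turned Dusp5 (-0.25), Fdft1 (0.21) and Rps18 (-0.0496), and with length and GC adjustment Dusp5 (-0.19), Actg2 (-0.072), Timp1 (-0.034), Fdft1 (0.46) and Rps18 (-0.79). Length and GC adjustment alone turned Lyz2 (-0.0466). Overlap assignment turned Nusap1 (-0.022), Relb (-0.44) and Tek (-1.13), and with length and GC adjustment Actg2 (-0.40), Col12a1 (0.13), Nusap1 (-0.40), Relb (-0.10), Psmb10 (-0.017), Psmd11 (-0.21), Notch1 (0.34) and Tek (-0.82). The 28 genes named for the size of their rise or fall turned under no alternative run, but they were chosen among genes that ranks and overlap assignment also called. Apart from scaling and gene assignment, by construction, the cause was not tested. TPM gives no read counts, so what depth limits is unknown.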

Other observations

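The gene listed highest in clone 2 among those at 0 in wild type was Gm37376, an annotated transcript of uncertain class and 453 bases on chromosome 19 (5801941 to 5802393, mm10). It had 1320.5, 1840.1, 1384 and 6500 scaled TPM in clone 2 and was listed at 0 in all 4 wild type libraries, chosen after its values were seen. The second plasmid-treated clone 2 library was well above the others. The log2 difference of Gm37376 was 11.08 by reference gene and 3.72 by exon coverage. Whether its transcripts belong to another gene at the same place was not tested. A listing at 0 does not show that its reads were absent from wild type.

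Median log2 differences per chromosome lay between 0.31 on chromosome X and 1.03 on chromosome 14, apart from chromosome Y at 0.096 with 5 tested genes and the mitochondrial genome at -2.39 with 37. By exon coverage adjusted for length and GC they lay between -0.24 on chromosome X and 0.54 on chromosome 15, apart from chromosome Y at -1.91 with 7 tested genes and the mitochondrial genome at -2.53. Xist, the noncoding RNA of the inactive X, was at 10.4 to 18.7 scaled TPM in clone 2 and 76.5 to 129 in wild type (-2.53), and was higher in clone 2 with unscaled TPM (0.82).

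Genes often used for scaling were not called in either direction. Actb, cytoplasmic actin, had 89.7, 942, 98.8 and 1387 scaled TPM in clone 2, against 587, 539, 670.0 and 619 scaled TPM in wild type; by exon coverage it had 324, 1014, 1064 and 1153 in clone 2, against 387, 432, 437 and 424 in wild type. Gapdh, of glycolysis, was at 3.46 to 4.88 scaled TPM in clone 2 and 3.997 to 9.55 in wild type (-0.54).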
